A study of Rattus norvegicus with 23 samples.

Results

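The 116 genes described here were abundant in healthy rat median nerve and stayed low in nerve repaired after a cut, at both times sampled. They were chosen from measured levels, in CPM, the count of a gene scaled by the total of its library to counts per 1e6. A gene entered if its mean in healthy nerve was at least 20 CPM and at least 4 times its mean in both healthy muscle and healthy vein. It also had to be at most 1/8 of the healthy nerve mean (12.5%) in each of the 4 repaired groups, and in the EV series its day 7 mean had to be under 3 times its day 3 mean. The first clause was met by 437 genes once 7 identifiers had been left out by the rule. The 116 were 26.5% of those 437, out of 32545 gene identifiers in the table, 23446 of which had at least 1 count. Levels against healthy nerve and the EV change over time therefore chose the genes, and the fold changes and calls given for them are a description that supports nothing. Apart from that EV change, the ratios among repaired nerve, vein and muscle were not used. The limits against nerve still bound both sides of each.

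The genes are known here by Ensembl identifier alone. The deposited table does not pair identifiers with names, and 0 of the 32545 identifiers could be matched in the RefSeq gene table that was used. For that reason no gene is given a name, a function or a sequence, and the tissue labels were not checked against marker genes. At most 2 identifiers were picked by p-value for each direction of a comparison, and some are followed in other comparisons too. The 2 highest genes in healthy nerve and another singled out after its values were seen are also printed.

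As background, a peripheral nerve holds the axons of neurons whose cell bodies lie elsewhere, together with Schwann cells, perineurial cells, fibroblasts and vessels. After a cut, axons beyond the injury degenerate, and Schwann cells that have lost axon contact turn down the synthesis of myelin proteins and lipids and take on a repair state. A muscle-in-vein graft is a segment of vein filled with muscle fibres that bridges the gap between the nerve stumps. None of this was tested with these identifiers.

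The series holds 23 RNA-seq libraries from wild-type (WT) rats, adult females by the series' description. Healthy tissue, untreated and taken at day 0, gave 5 libraries of median nerve, 3 of adductor muscle and 3 of epigastric vein. In the repaired groups the median nerve was cut to leave an 8 mm gap. The MIV groups, labelled as repair after the cut with MIV, had 3 libraries at day 3 and 3 at day 7, and the series describes a graft of 10 mm. The EV groups, also of 3 libraries at each day, are labelled as repair after the cut with no mention of MIV, and the abbreviation EV is not expanded in the labels. By its title the study asks what the muscle fibres of the graft do early in regeneration. Whether the libraries of a group were made from different animals is not labelled. The p-values therefore weigh each difference against the variation among these libraries, and that variation may be technical.

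Library totals ran from 12504035 to 17314324 counts. At day 3 all MIV libraries (15106525 to 17267954 counts) were deeper than all EV libraries (12504035 to 14795619 counts), and at day 7 the depths overlapped. Genes at least 4 times higher in healthy muscle than in both other healthy tissues (451 genes of 20 CPM or more) held 50.2% of the counts in healthy muscle on average and 1.73% to 2.40% in the 6 EV libraries. Their share was 4.41%, 2.77% and 2.73% in the MIV libraries at day 3 and 7.70%, 1.74% and 16.6% at day 7, so the day 7 MIV libraries were far from alike in this share. The RNA came from whole tissue, in which fewer cells of a type and less RNA per cell cannot be told apart.

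In healthy nerve the 116 genes together held 50118 ± 1519 CPM (SD, n = 5), or 5.01% of all counts, and the libraries spanned 48548 to 52571 CPM. In the EV libraries the sum was 1492 ± 68.3 CPM at day 3 and 1942 ± 144 CPM at day 7 (n = 3 each). In the MIV libraries it was 1882 ± 209 CPM at day 3 and 1738 ± 259 CPM at day 7 (n = 3 each). As a share of the healthy nerve sum, 2.98% was left in EV and 3.75% in MIV at day 3, and 3.88% in EV and 3.47% in MIV at day 7. Healthy vein held 2428 ± 150 CPM of the same genes (4.84% of the nerve sum) and healthy muscle 614 ± 47.8 CPM (1.23%), with n = 3 each. The 12 repaired libraries thus all lay below the 3 vein libraries and above the 3 muscle libraries, and none was near healthy nerve.

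The sum rests on a few genes. The highest gene in healthy nerve made up 19.7% of the nerve sum and the 2 highest 28.4%. Those same 2 genes made up 41.9% of the sum in EV and 55.3% in MIV at day 3, and 40.4% and 44.4% at day 7. All 3 MIV libraries at day 3 (1643 to 2035 CPM) were above all 3 EV libraries (1452 to 1571 CPM). Without the 2 highest genes the remaining genes gave 772 to 891 CPM in MIV and 725 to 997 CPM in EV at day 3, and the ranges overlapped.

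**Figure D1:**
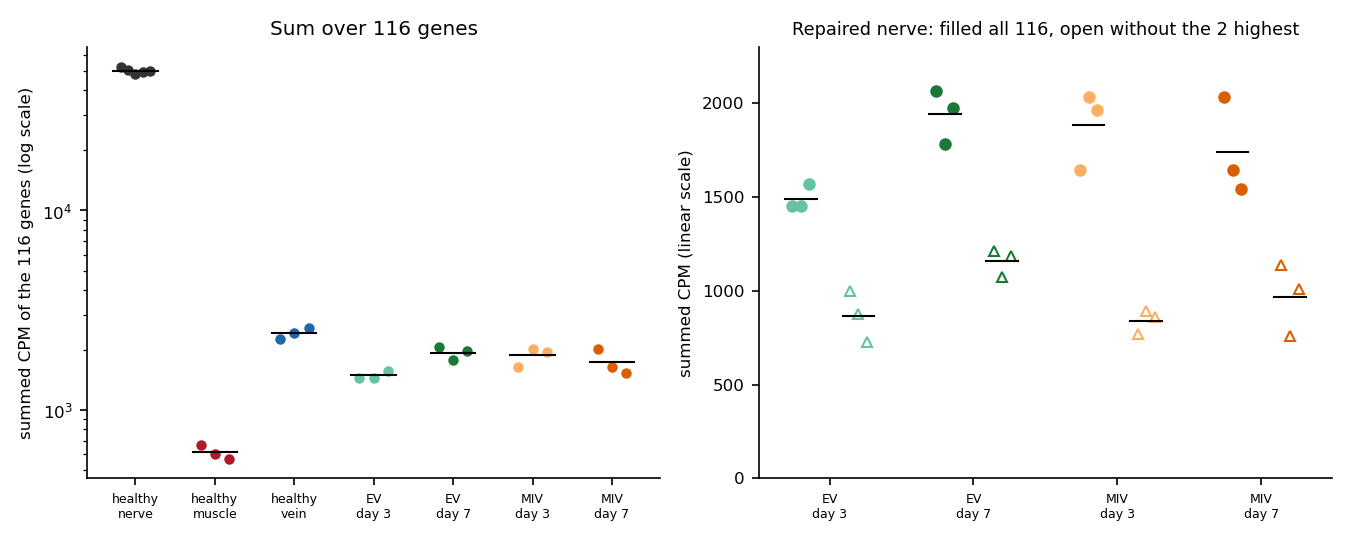
Summed level of the 116 genes in each library, in CPM, by group (points are libraries, bars are group means). The left panel has a log axis and all 7 groups, with healthy nerve at 48548 to 52571 CPM. The right panel has a linear axis from 0 and the 4 repaired groups, with filled circles for all 116 genes and open triangles for the sum without the 2 highest. The day 3 gap between MIV and EV is seen in the circles and not in the triangles.

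Levels in healthy nerve spanned 21.6 to 9884 CPM with a median of 111 CPM. Of the 116 genes, 9 had 1000 CPM or more, 54 had 100 to 1000 CPM and 53 had less. CPM is not corrected for transcript length, so this order is one of counts and not of transcript number. The 5 nerve libraries were close for most of the genes, with a median coefficient of variation of 13.4% and 85 genes under 20%. Only 4 genes exceeded 50%. The widest ran from 6.54 to 61.8 CPM across the nerve libraries, a coefficient of variation of 93.2%.

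ENSRNOG00000046005 was the highest gene of the group. Its healthy nerve libraries had 10843, 10006, 8980, 10156 and 9435 CPM. The EV libraries had 284, 300 and 375 CPM at day 3 and 592, 474 and 549 CPM at day 7. The MIV libraries had 435, 491 and 583 CPM at day 3 and 688, 593 and 450 CPM at day 7, so all 12 repaired libraries were far below nerve. The vein libraries had 207, 228 and 308 CPM and the muscle libraries 19.3, 22.1 and 16.8 CPM. Apart from the day 3 EV libraries at 284 and 300 CPM, each repaired library was above the highest vein library for this gene.

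ENSRNOG00000007393, the second highest at 4327 ± 476 CPM in nerve (n = 5), was also high in vein, at 14.7% of nerve. Its vein libraries had 590, 666 and 647 CPM and its muscle libraries 13.1, 15.8 and 17.9 CPM. The EV libraries had 172, 274 and 471 CPM at day 3 and 261, 240 and 241 CPM at day 7. The MIV libraries had 437, 654 and 521 CPM at day 3 and 205, 293 and 83.8 CPM at day 7. Its day 3 MIV mean, 12.4% of nerve, was the highest of any of the 116 genes in any repaired group and lay just inside the limit.

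The genes ranked 3, 4 and 6 by nerve level were lost much further. The gene ranked 3 averaged 4304 CPM in nerve and 4.93 to 18.2 CPM over the repaired libraries, so that 0.210% of the nerve level was left. The gene ranked 4 averaged 3436 CPM in nerve, and 0.753 to 7.26 CPM remained, or 0.0972%. The gene ranked 6 averaged 2479 CPM in nerve and had 0.613 to 9.30 CPM after repair, or 0.179%. For each of these 3 genes every vein library was above every repaired library, with vein at 27.7 to 29.8 CPM, 12.8 to 16.5 CPM and 50.2 to 60.3 CPM in that order. High level in nerve therefore went with both deep and shallow loss.

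Over the 116 genes the level left, as a percent of the healthy nerve mean, had a median of 1.82% in EV and 1.82% in MIV at day 3, and 3.03% in EV and 2.62% in MIV at day 7. Averaged over the 12 repaired libraries the median was 2.48%, from 0.00977% to 11.1%. By this average 5 genes had 0.1% or less left, 21 had 0.1% to 0.5%, 7 had 0.5% to 1%, 15 had 1% to 2%, 35 had 2% to 5% and 33 had 5% to 12.5%. The limit cut through a continuous range. The 3 genes just inside it reached 12.1%, 12.3% and 12.4% in their highest repaired group, and the 3 just outside 12.6%, 12.6% and 12.8%. On the EV time limit, the 3 genes just inside had day 7 to day 3 ratios of 2.90, 2.94 and 2.96, and the 3 just outside 3.01, 3.08 and 3.08.

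The gene lost furthest averaged 530 CPM in healthy nerve and 38764 counts over its 5 libraries, and had 9 counts in all over the 12 repaired libraries. Another averaged 63.5 CPM in nerve with 4694 counts and had 3 counts over the 12. It was the only one of the 116 with 3 counts or fewer there, and at that depth its level after repair cannot be told from 0. At least 1 repaired library had 0 counts for 33 of the genes, and 6 or more of the 12 had 0 counts for 8 genes. Per library, 3 to 13 of the 116 genes were at 0 counts in the repaired groups, 5 to 8 in vein, 8 to 27 in muscle and 0 in nerve.

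For 115 of 116 genes every healthy nerve library was above every repaired library, where 14.5% of the 15954 genes tested in all tissues did the same. The rule used that contrast, and nothing is read from the count. The exception ranged from 2.20 to 90.2 CPM in nerve and reached 3.41 CPM after repair. In edgeR's quasi-likelihood fit of the 23 libraries all 116 were lower than nerve in each repaired group, as the rule fixes, with median log2 fold changes of −5.92 in EV and −5.90 in MIV at day 3, and −5.21 in EV and −5.29 in MIV at day 7. Over all genes 30.7% and 30.6% were called lower in EV and MIV at day 3, and 24.0% and 25.4% at day 7. With library totals alone, over all genes 4949 were higher and 2992 lower in EV at day 7 where TMM scaling gave 3841 and 3822. The 4 groups share the same nerve libraries.

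**Figure D2:**
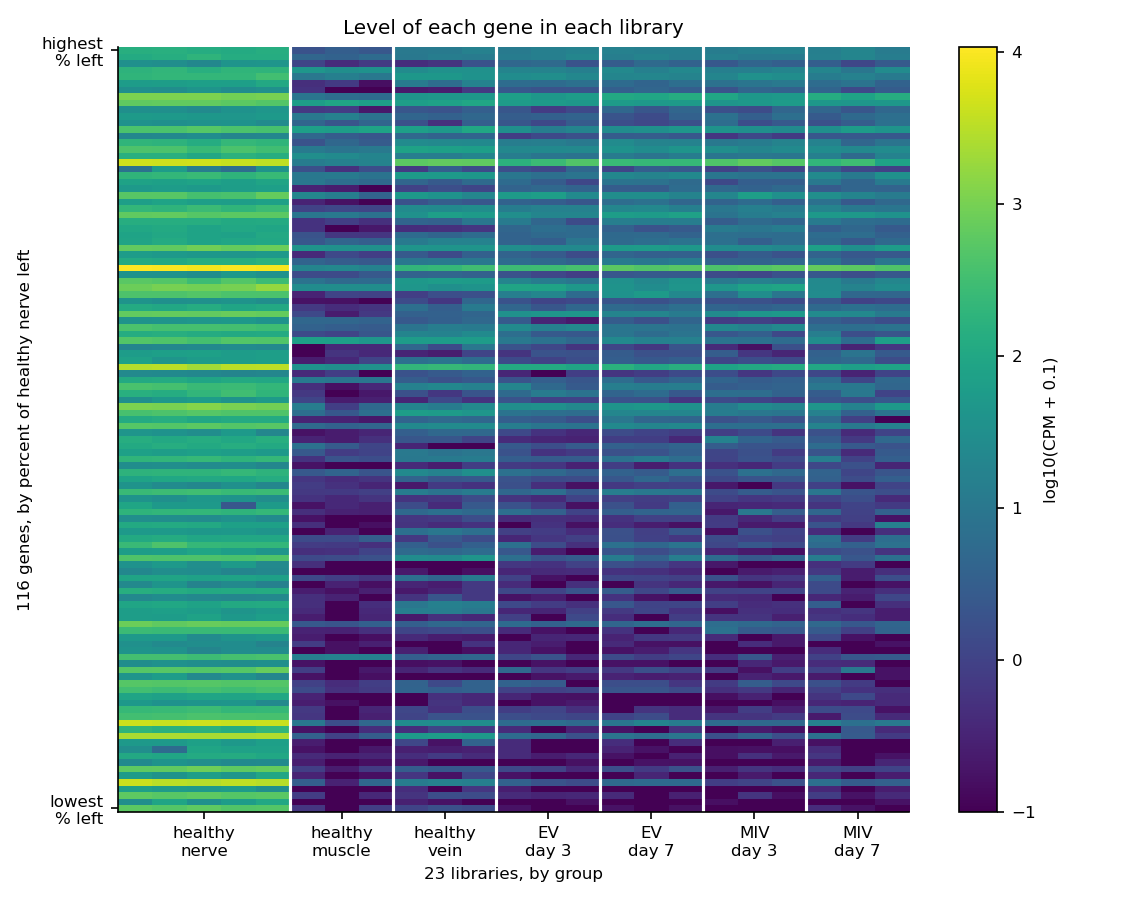
Level of each of the 116 genes (rows, ordered by percent of the healthy nerve mean left over the 12 repaired libraries) in each of the 23 libraries (columns, by group). The colour is log10(CPM + 0.1). Nearly all rows are brightest in the 5 nerve columns, and vein is brighter than the repaired libraries in many rows toward the bottom.

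What was left after repair could be set against healthy vein and healthy muscle, the tissues of a muscle-in-vein graft. The labels do not give the tissues used in the EV repair. The repaired mean was above healthy vein for 35 genes in EV and 35 in MIV at day 3, and for 42 in EV and 48 in MIV at day 7. It was above healthy muscle for 86 and 78 genes at day 3 and for 89 and 98 at day 7, in the same order. Genes with 0.1% or less left after repair had a median of 0.239% of the nerve level in vein, and those with 5% to 12.5% left had 8.53%. These percentages share the nerve mean as their divisor and come as a description. The rule holds repaired groups to 12.5% of nerve but lets vein and muscle reach 25%, which favours lower counts above either tissue. The share of all genes above vein or muscle was not worked out, so nothing is read from the counts.

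Comparisons with vein were made after the data had been seen, and the rule lets vein reach 25% of nerve but repaired groups 12.5%, which favours lower calls. In the 23-library edgeR fit at an adjusted p of 0.05, 13 of 116 genes were higher and 52 lower than vein in EV at day 3, against 26.7% and 25.6% of all genes. In MIV at day 3, 16 were higher and 50 lower, against 28.1% and 25.8%. At day 7 the counts were 14 higher and 34 lower in EV, against 15.0% and 13.5%, and 18 higher and 36 lower in MIV, against 25.5% and 20.4%. The genes' median log2 differences from vein were −0.85 and −0.91 in EV and MIV at day 3, and −0.51 and −0.59 at day 7. The 4 groups share the 3 vein libraries.

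Healthy muscle and healthy vein differed in 60 of 116 genes, 18 higher and 42 lower in muscle, where 64.2% of all genes differed (30.8% higher and 33.4% lower). The genes' median log2 difference was −0.78, beside −0.16 over all genes. With library totals alone in place of TMM scaling, 77 genes differed, 5 higher and 72 lower, and the median over all genes moved to −1.64 and that of the 116 to −2.26. Relative to all genes, the 116 were lower in muscle by either scaling, by a similar amount.

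The ratio of MIV to EV was not used to choose the genes. The rule did hold the EV day 7 mean under 3 times the EV day 3 mean. That limit favours genes with a high EV day 3 mean or a low EV day 7 mean. Those EV means enter each comparison of MIV with EV. Shares set beside all genes are therefore a description, at each day and over both days. Of the 116, 94 passed edgeR's filter on low counts over the 12 repaired libraries, and 22 did not. The filter asks for 0.701 CPM in 3 libraries. Either series alone met it for 79 of the 94, EV alone for 10 and MIV alone for 3, and 2 needed both. Passing through 1 series alone favours genes that are higher in that series, so the counts below are a description. Of the 3 genes that passed through MIV alone, 2 are those called higher in MIV over both days, below. The other had 0 to 0.979 CPM in EV and 0.0767 to 1.32 CPM in MIV. At day 3 none of the 94 was called at an adjusted p of 0.05, and 0.00% of the 15036 genes tested were. At an unadjusted p under 0.05 there were 9 of 94 (9.57%), beside 5.15% of all genes. At day 7 again none of the 94 and 0.00% of all genes were called, with 11 of 94 (11.7%) at an unadjusted p under 0.05, beside 16.7%. The genes' median log2 difference of MIV from EV was −0.06 at day 3 and −0.16 at day 7, beside −0.02 and 0.01 over all genes. A missed threshold does not show that the repairs were alike, since the 95% interval of the difference lay within 2-fold either way for only 22 of 94 genes at day 3 and 20 at day 7.

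Other ways of fitting the same counts made calls. DESeq2 called 2 of the 94 at day 3 and 1 at day 7, all higher in MIV, beside 247 and 868 genes in all. A fit over all 23 libraries called 2 of 116 at day 3 and 7 at day 7, beside 160 and 1135 genes in all. With edgeR and without the second MIV library of day 7, 96 of the 116 passed the filter, and 1 was called at day 3 and 2 at day 7, beside 70 and 688 genes. Libraries of the same number deviated together at day 7, and a fit that blocked on the number at that day called 43 genes there and none of the 94. By range alone, 8 of the 94 were higher and 7 lower in every MIV library than in every EV library at day 3, or 8.51% and 7.45% beside 7.30% and 3.93% of all genes. At day 7, 2 were higher and 13 lower (2.13% and 13.8%), beside 6.15% and 17.7%.

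ENSRNOG00000046005 was higher in all 3 MIV libraries than in all 3 EV libraries at day 3, with the values given above. Its log2 difference was 0.65 ± 0.19 (SE; 95% interval 0.22 to 1.07; edgeR adjusted p = 0.438), and at day 7 it was 0.21 ± 0.19 (−0.21 to 0.64; edgeR adjusted p = 0.569). ENSRNOG00000007393 had a wider interval at day 3, 0.81 ± 0.43 (−0.15 to 1.76; edgeR adjusted p = 1). Neither passed the threshold, although these are the genes that set the day 3 gap in the summed level.

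**Figure D3:**
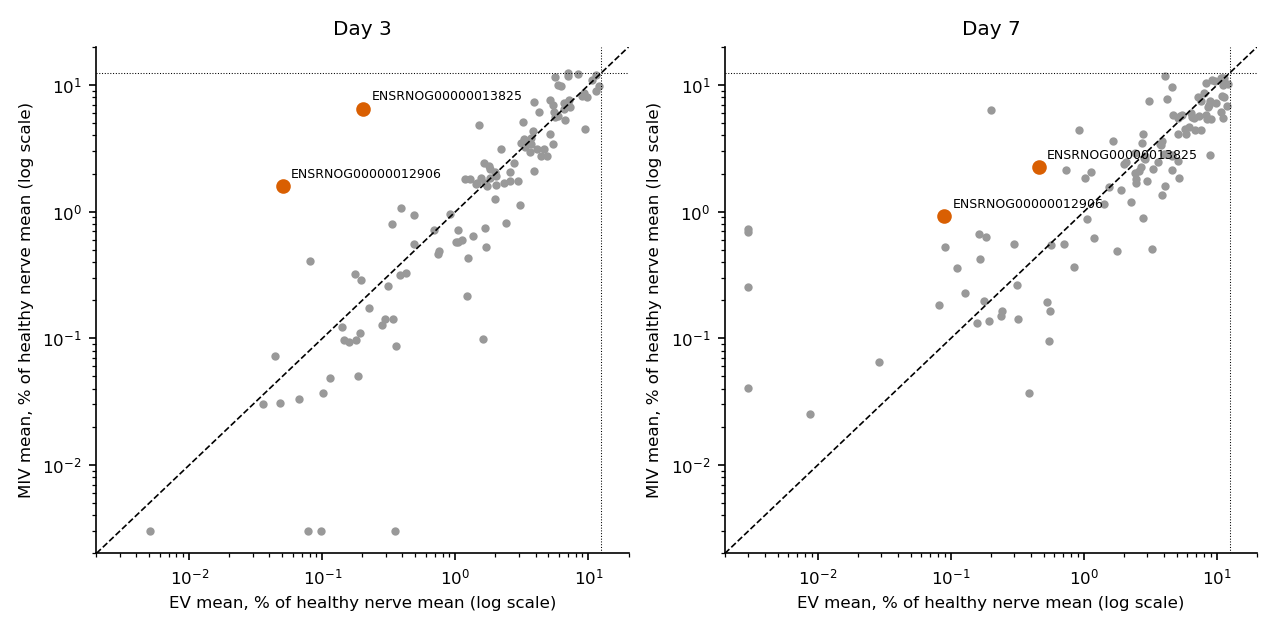
Level left in MIV (vertical) against EV (horizontal) for each of the 116 genes, as a percent of the healthy nerve mean on log axes, at day 3 (left) and day 7 (right). The dashed line is equality, dotted lines mark 12.5%, and means of 0 are drawn at the lower edge. Most points follow the line, and the 2 genes called higher in MIV over both days, in orange, lie above it.

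Over both days together, edgeR called 2 of the 94 genes (2.13%) higher in MIV and none lower, beside 1.42% of all genes higher and 0.120% lower. The split depended on the fit. DESeq2 called 4 higher and 3 lower (593 and 221 over all genes), and edgeR over all 23 libraries called 3 higher and 6 lower (698 and 277 over all genes). The 2 genes are ENSRNOG00000013825 and ENSRNOG00000012906, both close to absent in EV. Both passed the low-count filter through the MIV libraries alone, so their share beside that of all genes is a description. Without the filter, edgeR called 2 of the 116 higher and 0 lower, beside 172 higher and 15 lower of 22278 genes. ENSRNOG00000013825 had 134, 109, 129, 103 and 143 CPM in the nerve libraries. The EV libraries had 0.320, 0.226 and 0.203 CPM at day 3 and 0.729, 0.705 and 0.262 CPM at day 7. The MIV libraries had 17.3, 4.10 and 2.72 CPM at day 3 and 2.84, 0.583 and 4.91 CPM at day 7. Every MIV library was above every EV library at day 3, while at day 7 the second MIV library lay within the EV range. The log2 difference over both days was 3.70 ± 0.67 (SE; edgeR adjusted p = 0.0265). Even in MIV the mean of 6 libraries was 5.41 ± 6.01 CPM (SD), with the first day 3 library well above the rest.

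ENSRNOG00000012906 was the steadiest of the 116 genes in healthy nerve, with 275, 263, 263, 258 and 253 CPM. The EV libraries had 0.320, 0.0753 and 0 CPM at day 3 and 0.437, 0 and 0.262 CPM at day 7, 15 counts in all. The MIV libraries had 7.47, 2.71 and 2.32 CPM at day 3 and 2.51, 0.801 and 3.91 CPM at day 7, 310 counts in all. Every MIV library of either day was above every EV library of either day, which held for 1 of the 94 genes (1.06%) beside 1.11% of all genes. The log2 difference over both days was 4.19 ± 0.77 (SE; edgeR adjusted p = 0.0271). Healthy vein had 1.05 to 1.54 CPM of this gene and healthy muscle 0.206 to 0.404 CPM. For ENSRNOG00000013825 vein had 0.964 to 2.15 CPM and muscle 0.138 to 0.404 CPM.

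Both calls depended on single libraries, although the differences stayed about as large. Leaving out any 1 of the 6 EV libraries, or the third MIV library of day 7, ended both, with edgeR adjusted p from 0.0520 to 0.0920 for ENSRNOG00000013825 (log2 differences of 3.35 to 3.83) and from 0.0587 to 0.0966 for ENSRNOG00000012906 (3.91 to 4.99). The call of ENSRNOG00000012906 also ended without the first MIV library of day 3 (log2 difference 3.82; edgeR adjusted p = 0.0728). That of ENSRNOG00000013825 ended with the replicate number as a block (log2 difference 3.55; edgeR adjusted p = 0.0529) and with a block at day 7 only (3.54; edgeR adjusted p = 0.0627). In these 2 genes the day 7 MIV library with the lowest level, the second, also had the lowest share of muscle-rich genes, 1.74%, and the third, with the highest level, had the highest, 16.6%. At day 3 the first MIV library was highest both in these genes and in that share, 4.41%, although healthy muscle itself had at most 0.404 CPM of either gene. The part of muscle content in the difference was not tested.

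ENSRNOG00000030515 had the smallest unadjusted p among the genes lower in MIV. It averaged 324 ± 37.3 CPM in nerve (n = 5). The EV libraries had 0.880, 0.829 and 1.01 CPM at day 3 and 2.04, 2.04 and 1.31 CPM at day 7. The MIV libraries had 0.405, 0.596 and 0.232 CPM at day 3 and 0.792, 0.437 and 0.383 CPM at day 7, so every MIV library was below every EV library. The log2 difference over both days was −1.37 ± 0.34 (SE; edgeR adjusted p = 0.0829), which missed the threshold, and the gene had met the low-count filter through EV alone. With DESeq2 the difference passed, at an adjusted p of 0.0143. It was 1 of the 94 genes with this pattern in all 12 libraries (1.06%), beside 0.180% of all genes.

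The difference of the MIV effect between the days was not called for any of the 94 genes or for any gene in all (0.00%), with 1 of the 94 at an unadjusted p under 0.05 beside 796 of 15036 genes. DESeq2 called 17 genes and none of the 94. The rule limits the EV part of this term from above.

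From day 3 to day 7 in MIV, 9 of the 94 genes rose and 4 fell, 13.8% in all, beside 15.5% of all genes (7.39% higher and 8.09% lower). The share called was thus near that of all genes, and their median log2 change was 0.49, beside 0.06 over all genes. With library totals alone, 9 rose and 5 fell, and over all genes 905 rose and 1542 fell where TMM scaling gave 1111 and 1216. By range, 17 of the 94 were higher in every day 7 MIV library than in every day 3 library (18.1%, beside 12.4% of all genes) and 5 were lower in every one (5.32%, beside 19.9%).

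ENSRNOG00000004613 had the smallest p of those that rose. Its MIV libraries had 8.17, 13.04 and 16.5 CPM at day 3 and 52.3, 54.0 and 37.6 CPM at day 7, a log2 change of 2.03 ± 0.27 (SE; edgeR adjusted p = 0.00119). The EV libraries had 31.4, 19.1 and 19.5 CPM at day 3 and 64.5, 58.3 and 77.2 CPM at day 7, and healthy nerve 594 ± 59.5 CPM (n = 5). The day 3 and day 7 libraries did not overlap in either series, and at day 7 the MIV libraries lay within the range of the vein libraries, which had 35.8, 69.1 and 56.5 CPM.

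ENSRNOG00000018019 rose from 6.43, 6.49 and 6.84 CPM to 18.02, 10.7 and 16.03 CPM in MIV, a log2 change of 1.27 ± 0.25 (SE; edgeR adjusted p = 0.00817). Its EV libraries went from 13.5, 8.89 and 8.31 CPM to 24.3, 19.0 and 22.1 CPM, and nerve had 521 ± 37.8 CPM (n = 5). At both days all 3 MIV libraries of this gene were below all 3 EV libraries, with log2 differences of −0.63 ± 0.24 and −0.43 ± 0.24 that did not pass (edgeR adjusted p = 0.759 and 0.379).

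Of the abundant genes lost furthest, those ranked 3 and 4 by nerve level were also among the 9 that rose in MIV. Their log2 changes were 1.18 ± 0.31 and 2.07 ± 0.49 (SE; edgeR adjusted p = 0.0287 and 0.0190). Even so, their MIV means at day 7 were 0.262% and 0.132% of nerve.

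ENSRNOG00000048166 fell in MIV from 21.4, 15.4 and 22.8 CPM at day 3 to 6.53, 6.63 and 8.13 CPM at day 7, a log2 change of −1.39 ± 0.23 (SE; edgeR adjusted p = 0.00420). Its EV libraries had 25.2, 15.4 and 21.5 CPM at day 3 and 8.97, 8.70 and 7.60 CPM at day 7, values close to those of MIV at each day. Healthy nerve had 350 ± 38.5 CPM (n = 5). For this gene the loss went on between the days in both series, and the libraries of the days did not overlap.

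ENSRNOG00000046258 fell in MIV from 12.4, 9.20 and 12.9 CPM to 3.10, 4.74 and 2.53 CPM, a log2 change of −1.64 ± 0.33 (SE; edgeR adjusted p = 0.0100). In EV it had 4.40, 6.55 and 5.68 CPM at day 3 and 3.57, 1.88 and 2.62 CPM at day 7, and in nerve 98.8 ± 11.6 CPM (n = 5). Vein and muscle held at most 0.514 CPM of it, so that every repaired library was above every vein and muscle library. At day 3 all MIV libraries were above all EV libraries, a log2 difference of 1.05 ± 0.32 (SE; edgeR adjusted p = 0.471).

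The number of the 116 called over time in MIV, of the 94 to 96 that passed the filter as single libraries were left out, ran from 5 without the third MIV library of day 3 to 21 without the second MIV library of day 7. It was 7 without the second library of day 3 and 7 without the first of day 7. The 4 genes named for this change passed without any 1 of the 12 libraries.

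In EV, where the rule limited the rise, 9 of the 94 genes were called higher and 4 lower at day 7, as a description, beside 9.41% and 10.2% of all genes. The median log2 change was 0.66. Of the genes called in either series, 5 were higher at day 7 in both, 3 were lower in both, 5 were called in MIV alone, 5 in EV alone and 0 in opposite directions. Over all 116 genes by group means, 64 were higher at day 7 in both series, 16 lower in both, 20 higher in EV and lower in MIV, and 16 the reverse. The share of all genes with each pattern was not worked out and the rule limits the EV part, so nothing is read from these counts.

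**Figure D4:**
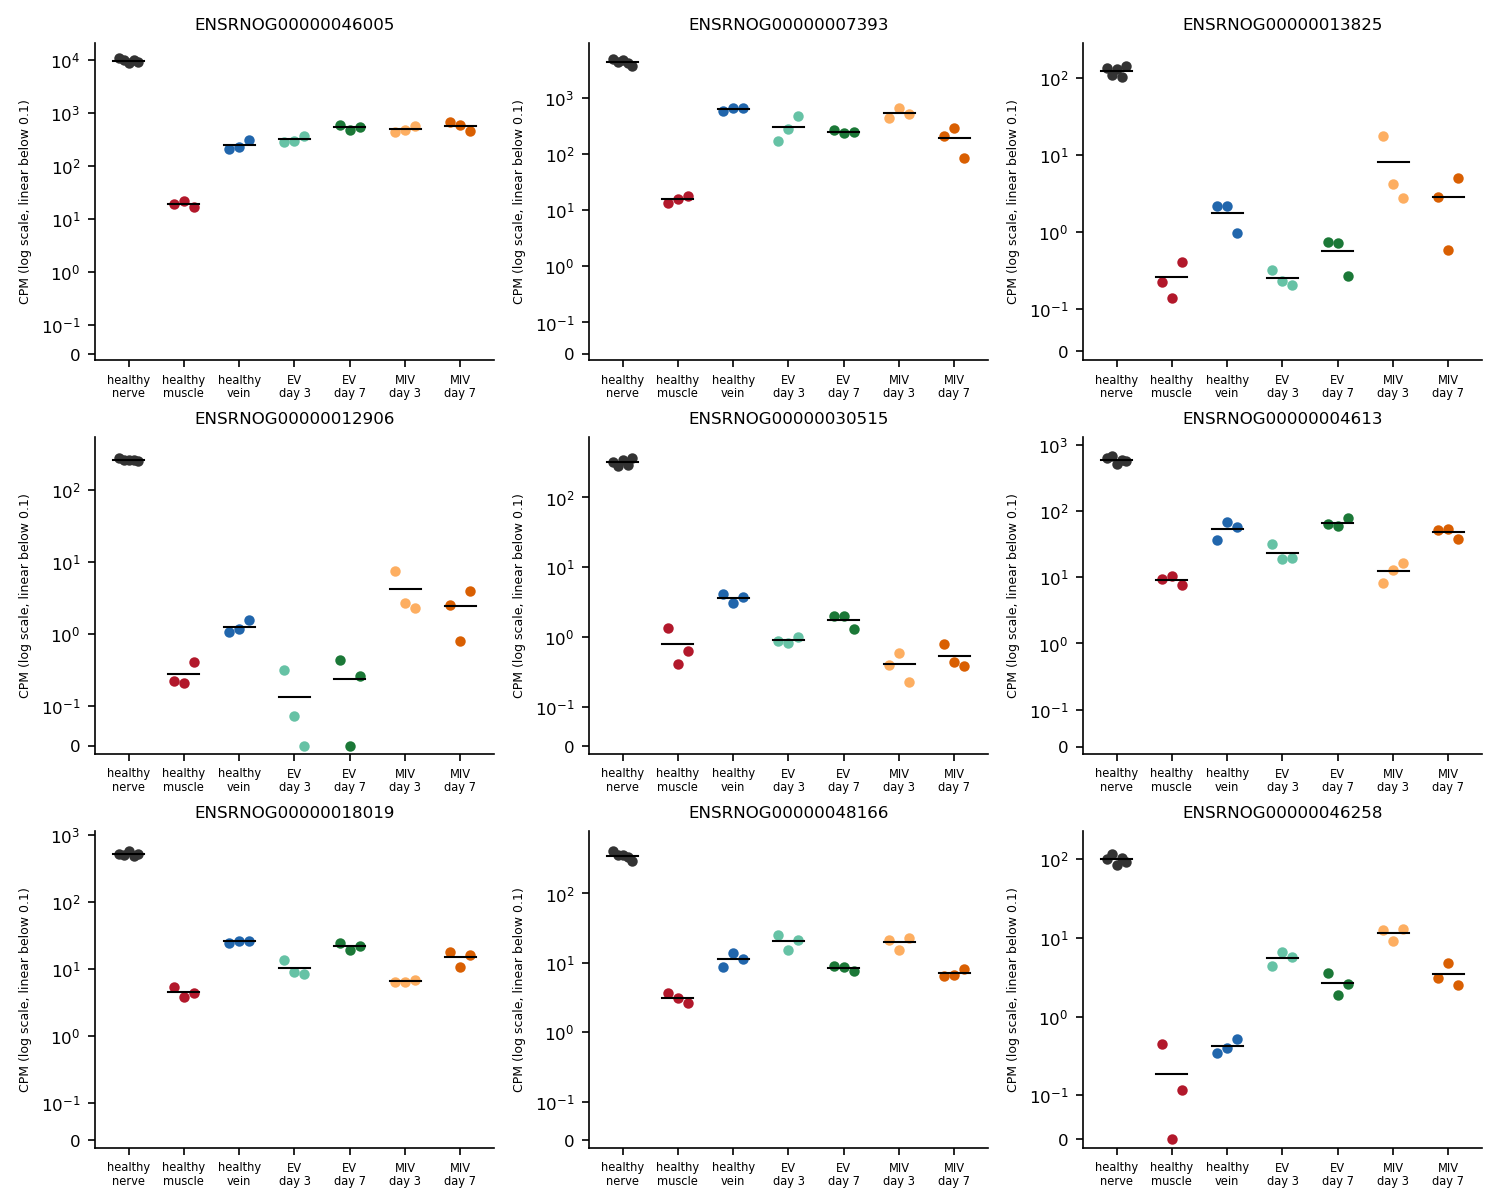
Level in CPM of 9 of the 116 genes in every library, by group (points are libraries, bars are group means; axes are logarithmic above 0.1 CPM and linear below). ENSRNOG00000013825 and ENSRNOG00000012906 are near 0 in EV and higher in MIV, ENSRNOG00000004613 and ENSRNOG00000018019 rise with time in MIV, and ENSRNOG00000048166 and ENSRNOG00000046258 fall.

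The other nerve genes split into 103 that were as low but rose 3 times or more in EV by day 7, and 218 that were above 1/8 of nerve in at least 1 repaired group. The split uses the same limits, so these values stand side by side with no test. The 116 summed to 2.98%, 3.88%, 3.75% and 3.47% of nerve in EV day 3, EV day 7, MIV day 3 and MIV day 7, the 103 to 0.524%, 2.79%, 0.482% and 1.95%, and the 218 to 32.3%, 28.3%, 52.0% and 26.2%. At day 3 the 116 had more of their summed level left than the 103. In EV the split favours this. Most MIV levels of the 116 lay near those of EV, so the split may favour it in MIV too. Nothing is read from it in either series. The 103 needed a day 7 mean of 3 times their day 3 mean or more, under the same limit of 1/8 of nerve. Over time in MIV, 9 rose and 4 fell of the 94 tested, 27 rose and 0 fell of 75 tested among the 103, and 20 rose and 27 fell of the 218. Of all genes tested 7.39% rose and 8.09% fell. Over both days edgeR called MIV above EV in 2 of the 94, 0 of the 75 and 6 of the 218, beside 1.42% of all genes. The median coefficient of variation in healthy nerve was 13.4% for the 116, 15.3% for the 103 and 14.8% for the 218.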

How the data were processed

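The authors deposited 1 table of raw read counts per Ensembl gene identifier for the 23 libraries. Per the labels' protocols, poly-T selected mRNA from 350 ng of total RNA went into non-directional libraries. CASAVA and HISAT2 are named in the submitters' processing notes. Which build, annotation and counting tool were used is not given in the sources used here. Without strand, reads of a gene and an overlapping antisense gene cannot be told apart, and how reads shared by near-identical genes were counted is not given.

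From the counts, CPM by library totals gave the levels and the rule's groups, and all 23 sample columns were used. Groups were compared with edgeR 4.0.16 (R 4.3.3; quasi-likelihood, robust, TMM factors, filterByExpr defaults with a minimum count of 10 and total of 15), Benjamini-Hochberg over all genes tested. The 12 repaired libraries were fitted together (15036 genes) for contrasts between them, and all 23 (15954 genes) for contrasts with healthy tissue. Standard errors are the log2 fold change over the root of F, and intervals use the fit's degrees of freedom. DESeq2 1.42.0, other factors, no filter, replicate blocks, and each library left out were alternatives. The code was tested on simulated data.

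The members and the lists were chosen with earlier results of these data known. Genes were to be named by level, call, p, percent left and spread, and only if they had a symbol. As 0 of 32545 identifiers could be matched to one, at most 2 identifiers per direction of a comparison were picked by p. The 2 highest by nerve level and another singled out after its values were seen are also printed. The 18 gene lists, the marker check and the sequence tables gave no value. At day 7, each pair of EV and MIV libraries of the same number deviated together (r = 0.224, 0.201 and 0.176 over genes). At day 3 only the pair numbered 2 did (r = −0.0913, 0.239 and −0.0149). The numbers come from the library names, which do not say what they share.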

Additional observations from a re-analysis of the deposited data

How the results depend on the processing

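None of the genes picked by p for a comparison changed direction in the alternative fits, and other called genes were not checked for this. The balance over all genes did change. Between MIV days 1111 rose and 1216 fell in the main fit, and 2056 rose and 1629 fell with DESeq2. The median log2 difference of MIV from EV over the genes ran from −0.19 to 0.11 at day 3 as single libraries were left out. At day 7 it ran from −0.37 to 0.02. With DESeq2, 247 genes differed between MIV and EV at day 3 (2 of the 116 genes), 868 at day 7 (1), 814 over both days (7), 3685 between MIV days (22), and 17 in the difference between days. With all 23 libraries in 1 fit these were 160 (2), 1135 (7), 975 (9) and 4153 (32), and 4533 (23) between EV days. The cause was not tested. The replicate block left 109 genes (1) over both days, and 11 of the 116 between MIV days and 14 between EV days. A block at day 7 only gave 43 genes at day 7, none of the 116, and 1 of the 116 over both days.

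Leaving out 1 library at a time gave 0 to 70 genes (0 to 1 of the 116) at day 3, 0 to 688 (0 to 2) at day 7, 0 to 698 (0 to 3) over both days, 804 to 3569 (5 to 21) between MIV days, 1390 to 4030 (2 to 17) between EV days, and 0 to 3 (0) in the difference between days.

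A limit of 1/16 of nerve kept 74 of the 116 genes. CPM with TMM factors gave 122, of which 107 were shared, and leaving out 1 library gave 91 to 132. The sum left in EV was 2.73% at day 3 and 3.46% at day 7 with TMM factors. The median gene had 1.82%, 3.03%, 1.82% and 2.62% left, and the sum without the 2 highest genes 2.41%, 3.22%, 2.34% and 2.69%, in EV day 3, EV day 7, MIV day 3 and MIV day 7. Low counts after repair kept 22 of the 116 genes out of the contrasts between repaired groups.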

Other observations

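Of the 116 genes, 10 (8.62%) had 1 healthy nerve library that stood apart from the other four by Dixon's test, 8 high and 2 low, where chance flags about 1 in 20. Nerve library 5 accounted for 4 of them, library 3 for 3, library 2 for 2, library 4 for 1 and library 1 for 0. The share of all genes with such a library was not worked out, so nothing is read from these counts.

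ENSRNOG00000059605 had 16.03 CPM (209 counts) in the third MIV library of day 7 and 0 to 1.91 CPM in the other repaired libraries. Its nerve libraries had 116, 119, 110, 71.4 and 73.5 CPM, and its muscle libraries 0.374, 0 and 0.0578 CPM. That same library had the highest share of muscle-rich genes, 16.6%. The part of muscle content in this value was not tested.

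ENSRNOG00000008058 at day 7 had 7.39 and 6.44 CPM in MIV libraries 1 and 3 and 0.656 CPM in library 2, beside 1.60, 0.862 and 0.524 CPM in EV. Its log2 difference was 2.38 (edgeR adjusted p = 0.185), and it passed without the second MIV library (edgeR adjusted p = 0.0155). It also passed in 1 of the alternative fits that left no library out (log2 difference 2.38). ENSRNOG00000008058 was picked by p for MIV against EV at day 7, whereas ENSRNOG00000059605 was singled out after its values were seen.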
